A study of Oryza sativa with 6 samples.

Results

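The genes described here are the lipoxygenase genes CM-LOX2 and LOX2, the oxophytodienoate (OPDA) reductase gene OPR10 and the JAZ repressor gene JAZ11 of rice. They were taken as every probe set assigned to 1 gene where that gene is LOC4340486 (OPR10) or carries the name CM-LOX2, LOX2 or JAZ11 in the RefSeq rice gene table. This gave 6 probe sets of 4 genes, among 22436 probe sets with 1 gene and 57194 non-control probe sets in all. CM-LOX2 (LOC4345994, also LOX9) has 3 probe sets, and LOX2 (LOC4331824), OPR10 (LOC4340486, also OPR4) and JAZ11 (LOC4331833, also TIFY11c) have 1 each. The genes were chosen by their differences between the genotypes on these same arrays, so those differences are given as a description, with no test. JAZ numbers follow several schemes: LOC4335698 (JAZ5, TIFY9) also carries the name OsJAZ11 and is treated below as JAZ5.

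Leaf RNA came from rice plants aged 4 weeks, with 3 biological replicates of the wild type and 3 of transgenic plants that overexpress the GATA factor OsCGA1, and was hybridized to 1-colour Affymetrix Rice Genome Arrays. According to its title the study concerned chloroplast development, and the comparison asks which leaf transcripts go with extra OsCGA1. Both genotypes grew in chambers with days of 16 h at 28 °C and nights of 8 h at 23 °C. The promoter of the transgene, the number of independent lines and the hour of harvest are not given in the sources used here.

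Jasmonate is a lipid-derived hormone of wounding, defence and fertility. In the plastid, lipoxygenases add oxygen to linolenic acid, allene oxide synthase (AOS) and allene oxide cyclase (AOC) turn the product into OPDA, and in the peroxisome an OPDA reductase and rounds of beta-oxidation finish the synthesis. JAR1 joins jasmonate to isoleucine. The conjugate is sensed by COI1-type F-box proteins, which then mark JAZ proteins for destruction; JAZ proteins otherwise hold down MYC2-type transcription factors, with NINJA and TOPLESS-like proteins as co-repressors. Many JAZ genes are themselves induced by jasmonate. Rice has a family of OPDA reductases, of which OPR7 is the one known to act in jasmonate synthesis. The part of OPR10 in jasmonate synthesis is therefore less certain than its family name implies, and lipoxygenases also make products other than jasmonate.

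Signals below are the deposited MAS5 intensities. Changes are differences of log2(signal + 3), overexpression minus wild type, and the value after ± is the standard error from limma unless SD is named (n = 3 arrays per genotype). A probe set was tested if its signal averaged 16.8 or more, which is the median non-control signal. Of the 6 member probe sets, 4 passed this filter, 1 for each gene.

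CM-LOX2, a lipoxygenase gene, was brighter in every overexpressing sample than in any wild type sample. Its main probe set read 47.3, 49.2 and 68.7 on the wild type arrays and 206.9, 314.2 and 195.1 with overexpression. The groups did not overlap, and overexpression replicate 2 stood highest. The means were 55.1 ± 11.8 and 238.7 ± 65.6 (SD, n = 3 each), and the log2 change was 2.04 ± 0.22, or 4.12-fold. The 95% interval of the change ran from 1.53 to 2.55.

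The other CM-LOX2 probe sets were dim and lay below the filter. One read 2.4, 0.9 and 0.7 on the wild type arrays and 18.8, 12.9 and 12.3 with overexpression, again without overlap. Its wild type readings lie below the pseudocount of 3, so its log2 change of 2.03 is set in part by that constant. The third probe set, of a type whose probes may bind related transcripts, read 0.5, 0.7 and 1.3 on the wild type arrays and 0.6, 6.2 and 12.3 with overexpression. There overexpression replicate 1 fell within the wild type range, and the groups overlapped. No level could be fixed for this probe set in either genotype.

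JAZ11, a repressor gene of the TIFY family, was likewise higher in overexpression. It read 166.5, 223.7 and 199.1 on the wild type arrays and 710.7, 1024.5 and 524.7 with overexpression. All overexpression arrays lay above all wild type arrays, and replicate 2 was again the highest. The log2 change was 1.88 ± 0.23, or 3.68-fold, with a 95% interval of 1.34 to 2.42. The spread among overexpression arrays (SD 0.48 on the log2 scale) was wider than among wild type arrays (SD 0.21).

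OPR10, an OPDA reductase gene, read 48.3, 58 and 39.1 on the wild type arrays and 118.2, 132.1 and 124.6 with overexpression. Its overexpression arrays were close together (SD 0.08 on the log2 scale), its wild type arrays less so (SD 0.27). The log2 change was 1.33 ± 0.17, or 2.51-fold, with a 95% interval of 0.93 to 1.73.

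LOX2 went the other way. This lipoxygenase gene read 213.1, 204.9 and 194.8 on the wild type arrays and 110.1, 121 and 124.8 with overexpression. The groups were narrow and did not overlap. The log2 change was -0.77 ± 0.12, so that the signal was 1.71-fold lower in overexpression, with a 95% interval of -1.04 to -0.50. Across all tested probe sets the groups did not overlap in 38.7% (16.7% with overexpression above and 22.0% with it below), so that freedom from overlap alone sets none of these genes apart.

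**Figure D1:**
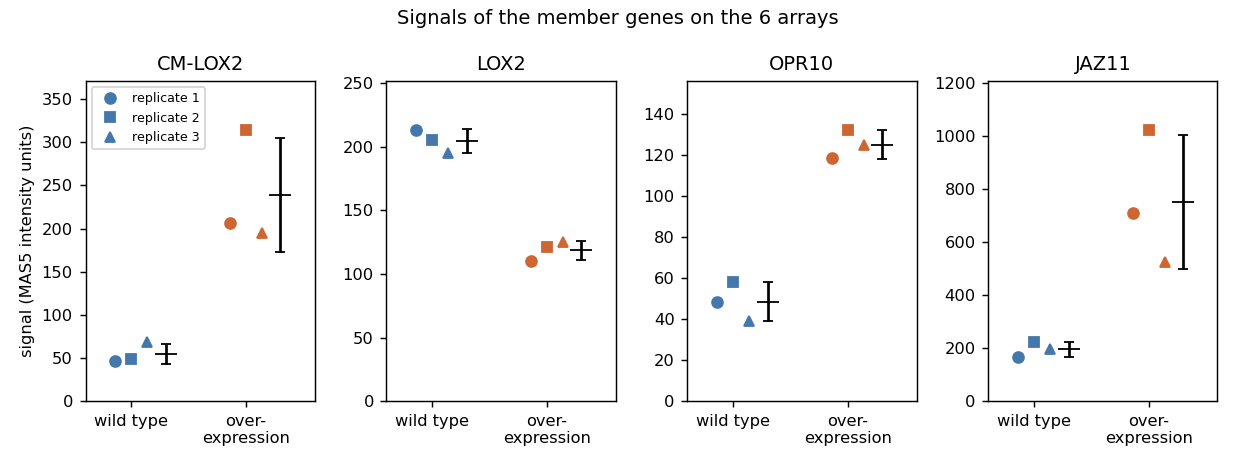
Signal (MAS5 intensity units, linear axis from 0) of the main probe set of each member gene on the 3 wild type arrays (blue) and the 3 overexpression arrays (orange). Marker shapes give the replicate number, and black bars give mean ± SD (n = 3). In overexpression CM-LOX2, OPR10 and JAZ11 lie above all wild type arrays and LOX2 below them.

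CM-LOX2 and JAZ11 lay near each other by a measure of likeness that includes the change between the genotypes. Likeness was measured as the root mean square difference over the 6 arrays, after each gene's log2 values were set against its own wild type mean. Among 2052 other named and tested genes, CM-LOX2 was the gene nearest to JAZ11, at 0.24. After it came AGO18, an Argonaute gene (0.27), and YSL13, a metal transporter gene (0.28). Nearest to CM-LOX2 were AGO18 (0.13), YSL13 (0.24) and JAZ11 (0.24). The genes nearest to OPR10 were the ascorbate peroxidase gene APX5 (0.10), the growth-regulating factor gene GRF1 (0.14) and XOAT7 (0.22). Those nearest to LOX2 were the zinc finger gene OsC3H53 (0.08), the homeobox gene HOX1 (0.09) and SAT5 (0.09). All of these values compare the same 6 arrays, and no test was attached to them. The members were chosen for their change between the genotypes, and a gene with a change of like size scores as near. AGO18 was at a log2 change of 1.91 and YSL13 at 1.81. On the wild type arrays CM-LOX2 was highest on replicate 3 and JAZ11 on replicate 2.

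The members sit among relatives on the chromosomes, in the gene order of the RefSeq assembly ASM3414082v1. CM-LOX1 and CM-LOX2 are direct neighbours on chromosome 8. JAZ9, JAZ11 and JAZ10 follow one another on chromosome 3, and 6 protein-coding genes lie between LOX2 and JAZ9. OPR10 stands in a row of OPR genes on chromosome 6. These neighbours are described with their families below, since related transcripts can share probes and the deposited signals cannot show how far they do.

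**Figure D2:**
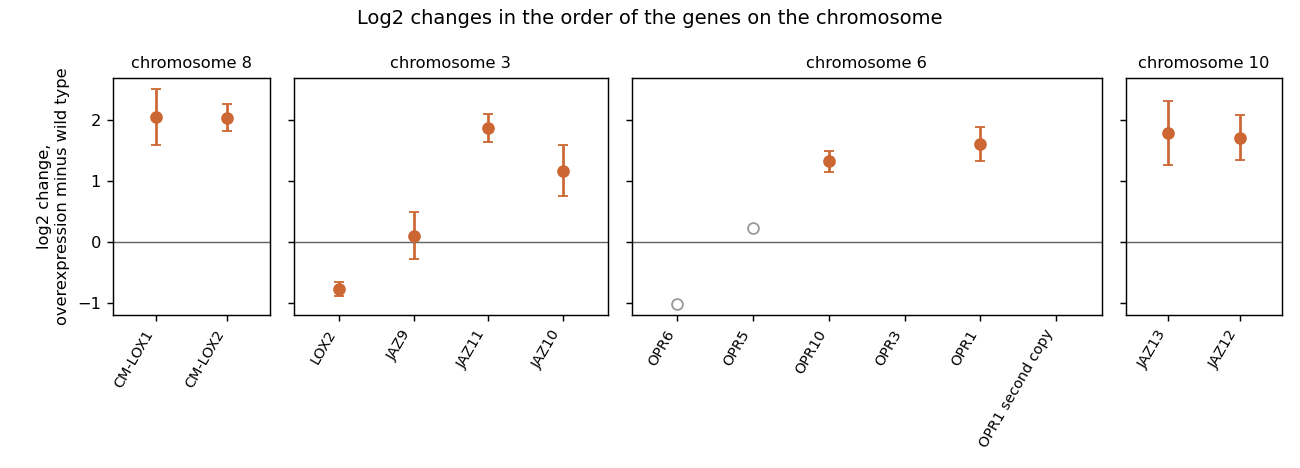
Log2 change (overexpression minus wild type) of genes in their order along 4 chromosomes, as points with the standard error as bars (n = 3 arrays per genotype). Open grey points lie below the filter on signal and have no error, and OPR3 and the second copy of OPR1 have no probe set of their own. JAZ11 is at 1.88 while its neighbour JAZ9 is at 0.10, and LOX2 is at -0.77.

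The rest of the pathway was described from a list of genes by role. The list held 45 genes other than the members, of which 42 had a probe set of their own and 32 passed the filter (1 probe set per gene, the brightest). Of these 32, 10 rose and 1 fell, where an adjusted p under 0.05 over all 28456 tested probe sets counts as passed (limma, Benjamini-Hochberg). Over all 14616 tested genes 11.1% were higher and 8.00% lower, and over all tested probe sets 16.1% passed in either direction. The median log2 change was 0.34 over the 32 genes and -0.02 over all tested genes. The count of 10 became 4 when either wild type replicate 1 or wild type replicate 2 was left out, and 12 when overexpression replicate 1 was. The 4 genes that passed both without wild type replicate 1 and without wild type replicate 2 were LOX5, OPR1, OPR8 and JAMYB. The list was drawn up with earlier results of these arrays known, so its counts are a description.

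**Figure D3:**
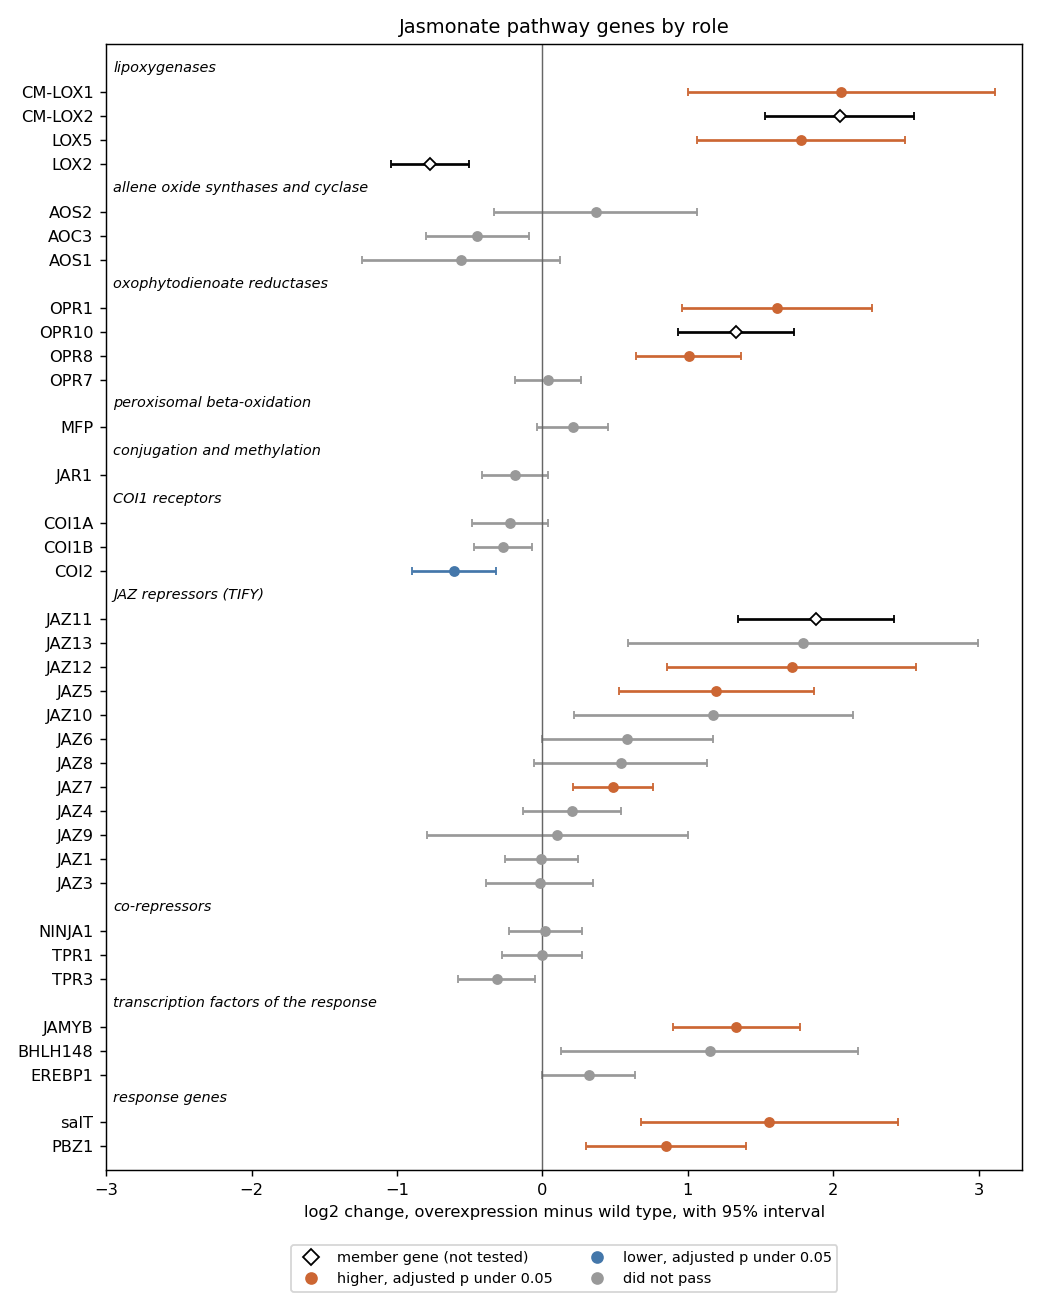
Log2 change (overexpression minus wild type) of the tested jasmonate genes by role, as points with 95% intervals from limma (n = 3 arrays per genotype). Orange and blue points passed at an adjusted p under 0.05, and grey points did not. Open diamonds are the member genes, given without a test result. Their intervals come from the same fit and are a description, since the members were chosen by this difference. The 3 genes of allene oxide synthesis and cyclization are all grey, with AOS2 above 0 and AOS1 and AOC3 below it. Of the lipoxygenases, CM-LOX1 and LOX5 are orange, and the members CM-LOX2 and LOX2 lie above and below 0.

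Among lipoxygenase genes outside the members, both that passed the filter rose, where 11.1% of all tested genes were higher by limma. CM-LOX1 (LOC4345993), the neighbour of CM-LOX2, read 24, 34 and 90.4 on the wild type arrays and 166, 285.3 and 134.4 with overexpression. Its log2 change of 2.05 ± 0.46 (limma adjusted p = 0.0219) lay beside the 2.04 of CM-LOX2; wild type replicate 3 stood above the other wild type arrays. LOX5 (LOC4333823) rose by 1.78 ± 0.31 (limma adjusted p = 0.00903), from 89.5, 155.8 and 238.9 to 536.3, 592 and 443.6. Overexpression replicate 2 was the highest for both. LOX3 and LOX1.1 lay below the filter with overlapping groups, at 9 to 17.5 and 6.7 to 17.2, and LOX4 has no probe set of its own. CM-LOX1 did not pass without wild type replicate 1 or without wild type replicate 2.

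Of the 3 tested genes for the steps after the lipoxygenases, none passed by limma, and 1 (AOC3, lower) had an unadjusted p under 0.05. AOS1 (LOC4334233) read 95.7, 93.5 and 113.7 on the wild type arrays and 44, 109.5 and 62.7 with overexpression, a log2 change of -0.56 ± 0.29 that did not pass (limma adjusted p = 0.225). AOS2 was at 0.37 ± 0.30 (limma adjusted p = 0.433), with wild type signals of 16.8 to 29.8. AOC3, the allene oxide cyclase gene known from the jasmonate-deficient mutant cpm2, read 1593, 2027.7 and 1808.5 on the wild type arrays and 1139, 1629.9 and 1240 with overexpression. Its change of -0.45 ± 0.15 did not pass (limma adjusted p = 0.0847), and its 95% interval ran from -0.80 to -0.09. AOS3 and AOS4 were below the filter, with no signal above 9. AOS1 and AOC3 both passed as lower without overexpression replicate 2, which was the highest overexpression array for each. AOC3 also passed as lower with array weights and with the replicate block.

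Among OPDA reductases the genes split. OPR1 (LOC4340490), in the same chromosomal row as OPR10, read 35.9, 37.6 and 56.3 on the wild type arrays and 192.1, 141.8 and 92 with overexpression, a rise of 1.61 ± 0.28 (limma adjusted p = 0.0093). This gene shares its names with a second copy, LOC112936094, which has no probe set of its own, so its signal may come from both. OPR8 (LOC4329684), on another chromosome, rose by 1.01 ± 0.16 (limma adjusted p = 0.00569), from 37 to 43.1 in wild type to 78.6 to 90.7 in overexpression. OPR7 (LOC4345762), the reductase known for jasmonate synthesis, read 347.6, 364 and 365.1 on the wild type arrays and 387.8, 347.7 and 371.4 with overexpression. Its change was 0.04 ± 0.10 (limma adjusted p = 0.815), and its 95% interval ran from -0.19 to 0.27. OPR6, the first gene of the chromosomal row, was dim in both genotypes, at 16.3 to 18 in wild type and 5.1 to 10.8 in overexpression, with no overlap, while OPR5 and OPR12 overlapped below the filter.

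The later steps of synthesis gave small changes that did not pass. MFP, a multifunctional protein gene of peroxisomal beta-oxidation, was at 0.21 ± 0.11 (limma adjusted p = 0.217). JAR1, the conjugating enzyme gene, was at -0.19 ± 0.10 (limma adjusted p = 0.215). In both the groups did not overlap, as in 38.7% of all tested probe sets. In all, 4 of 10 tested genes listed under synthesis and conjugation, outside the members, rose by limma and none fell. The list goes by gene name, and whether each gene acts in jasmonate synthesis was not tested. Over all tested genes 11.1% were higher and 8.00% lower. These 4 were the 2 lipoxygenases and the 2 reductases above, while AOS1, AOS2, AOC3, OPR7, MFP and JAR1 did not pass. Of those that did not pass, 1 had an unadjusted p under 0.05 and was lower (AOC3). No gene named for hydroperoxide lyase, jasmonate methylation or the turnover of jasmonoyl-isoleucine was found by the names searched, so those branches were not analysed here.

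Receptor transcripts were lower or did not pass. COI2 (LOC4332349) fell from 858.2, 1079.4 and 842.5 to 559.9, 653.9 and 600.9, by 0.61 ± 0.13 on the log2 scale (limma adjusted p = 0.0169). COI1A was at -0.22 ± 0.11 and COI1B at -0.27 ± 0.09, with limma adjusted p of 0.206 and 0.0668. For all 3 the highest overexpression reading lay under the lowest wild type reading, as it did for 22.0% of all tested probe sets. The fall of COI2 did not pass without wild type replicate 2 or without overexpression replicate 3. For scale, all tested probe sets together had a median log2 change of -0.09.

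Of 11 tested JAZ genes besides JAZ11, 3 rose by limma, none fell and 8 did not pass. Their median log2 change was 0.54, with a wide spread between overexpression arrays. The shares over all tested genes were 11.1% higher and 8.00% lower by limma, with a median log2 change of -0.02. At an unadjusted p under 0.05, 5 of these 11 JAZ genes were higher and 0 lower. The share of all tested genes at that unadjusted threshold is not given here, so the count has no base rate beside it. Even after adjustment 16.1% of all tested probe sets passed. JAZ12 (TIFY11d, LOC4348533) rose by 1.71 ± 0.37 (limma adjusted p = 0.0199), from 142.8, 198.6 and 228.9 to 397.7, 1172.8 and 507.9. JAZ5 (TIFY9) rose by 1.20 ± 0.29 (limma adjusted p = 0.0299), from 28, 39.3 and 49.1 to 73.6, 136.2 and 74.1. JAZ7 (TIFY10b, LOC4343899) rose by 0.48 ± 0.12 (limma adjusted p = 0.0318), from 1854.2, 1947.8 and 1985.8 to 2270.3, 2954.4 and 2933.5. Overexpression replicate 2 was the highest array for each of these 3. None of the 3 passed without wild type replicate 1, or without wild type replicate 2, and JAZ12 alone of the JAZ genes tested passed without overexpression replicate 3.

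The JAZ genes beside JAZ11 did not share its pattern array by array. JAZ10 (TIFY11b) read 236.1, 211 and 218 on the wild type arrays and 229.1, 852.2 and 650.4 with overexpression, so that overexpression replicate 1 was at the wild type level while the other two were far above it. Its log2 change of 1.17 ± 0.42 did not pass (limma adjusted p = 0.0927), and a second probe set of the gene showed the same order, with 117.1 on replicate 1 against 411.1 and 374.2. JAZ9 (TIFY11a) read 284.5, 251.7 and 131 on the wild type arrays and 127.1, 311.9 and 293.1 with overexpression, at 0.10 ± 0.39 (limma adjusted p = 0.88). JAZ11, between them on the chromosome, stood above wild type on replicate 1 as well, by 1.85 against the wild type mean on the log2 scale, where JAZ10 was at 0.05 and JAZ9 at -0.72. JAZ13 (TIFY11e) on chromosome 10 resembled JAZ10, with 21.7, 22.3 and 22.8 on the wild type arrays and 30.5, 161.6 and 117.7 with overexpression. JAZ13 was at 1.79 ± 0.52 and missed the threshold (limma adjusted p = 0.0533).

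Overexpression replicate 1 was the lowest of the 3 overexpression arrays for 9 of 12 tested JAZ genes, JAZ11 included, and replicate 2 the highest for 9 of 12. Over all tested probe sets replicate 1 was the lowest for 40.2% and replicate 2 the highest for 39.8%. Without overexpression replicate 1, 6 JAZ genes passed as higher (JAZ5, JAZ6, JAZ7, JAZ10, JAZ12 and JAZ13). Replicate 1 also had the highest signal ratio of 3' to 5' actin probe sets, a sign of RNA quality, at 3.40 against 2.16 and 2.22 on the other overexpression arrays and 1.53 to 2.01 in wild type. In a second actin pair it was again the highest, at 5.76 against 4.26 and 3.88 on the other overexpression arrays and 2.98 to 4.53 in wild type. For GAPDH the ratio on replicate 1 was 4.65, above the 4.04 and 3.36 of the other overexpression arrays but within the wild type range of 4.25 to 5.18. The part of RNA quality in these results was not tested. The remaining JAZ genes, JAZ1, JAZ3, JAZ4, JAZ6 and JAZ8, had changes from -0.02 to 0.58 and did not pass, and JAZ2 lay below the filter.

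**Figure D4:**
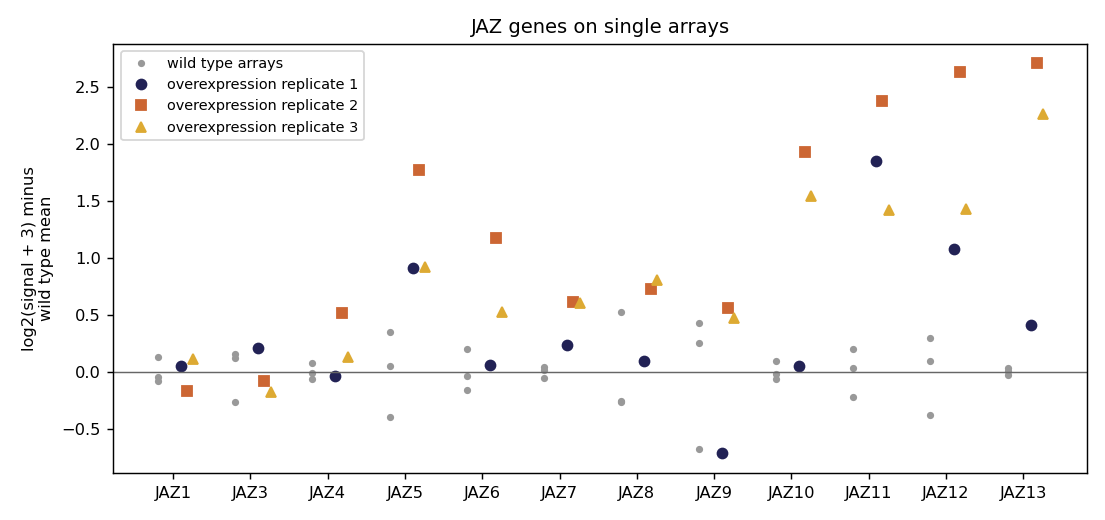
Log2(signal + 3) of the 12 tested JAZ genes on each array, set against the gene's wild type mean. Grey dots are the 3 wild type arrays, and circles, squares and triangles are overexpression replicates 1, 2 and 3. For JAZ10 and JAZ13 replicate 1 lies at 0.05 and 0.41, below the other overexpression arrays, while for JAZ11 it lies at 1.85.

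None of the 3 co-repressor genes passed by limma, and 1 (TPR3, lower) had an unadjusted p under 0.05. NINJA1 was at 0.02 ± 0.11, the TOPLESS-like gene TPR1 (LOC4327709) at -0.003 ± 0.12 and TPR3 at -0.31 ± 0.11, with limma adjusted p of 0.916, 0.99 and 0.1. The probe sets of NINJA1 disagreed slightly, the other one being at -0.29 ± 0.17.

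Among the listed genes of the response, 1 of 3 tested transcription factor genes and 2 of 2 tested response genes rose by limma. Over all tested genes 11.1% were higher and 8.00% lower. JAMYB (LOC4351131), a jasmonate-inducible MYB factor gene, rose by 1.33 ± 0.19 (limma adjusted p = 0.00414), from 52.1, 38.5 and 47.5 to 116.3, 145.4 and 101. The bHLH148 gene, whose product binds JAZ proteins, was at 1.15 ± 0.44 and did not pass (limma adjusted p = 0.114). Like JAZ10 it had a wild type-like reading of 58.5 on overexpression replicate 1, against 188 and 209.7 on replicates 2 and 3. It passed without overexpression replicate 1, with array weights and with the replicate block. EREBP1 was at 0.32 ± 0.14 (limma adjusted p = 0.152), while its dimmer probe set was at -0.92 ± 0.43. The salT gene, which encodes a mannose-binding lectin, rose by 1.56 ± 0.38 (limma adjusted p = 0.0306), from 116.7, 95.6 and 154.1 to 605.8, 401.6 and 189.8. PBZ1, a pathogenesis-related gene of the PR10 family, rose by 0.85 ± 0.24 (limma adjusted p = 0.0475), from 2267.5, 2458.8 and 2478.9 to 4641.8, 6087.8 and 2869.5. For salT and PBZ1 replicate 3 was the lowest overexpression array, and both lost their call in 9 of 15 alternative settings.

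A few facts of the whole comparison stand beside these values. All 10 leaf genes checked (among them CAB2R, rca and NIA1) were above the filter, with summed signals of 60881 to 67551 in wild type and 42049 to 49784 in overexpression. All 10 had a negative log2 change, 4 fell by limma and 9 had an unadjusted p under 0.05. Over all tested genes 8.00% were lower and 11.1% higher by limma. Root genes summed to 698.9 to 732.7 in wild type and 293.2 to 333.2 in overexpression, with Lsi2 near 0 in both genotypes. Of 6 tested, 3 were lower by limma and 4 had an unadjusted p under 0.05. Of 5 tested epidermis and cuticle genes 2 fell by limma (3 at an unadjusted p under 0.05, sums of 2988 to 3158 and 2137 to 2502). Of 2 tested genes of dividing cells none passed by limma (1 at an unadjusted p under 0.05, sums of 163.6 to 185.6 and 180.1 to 216.4). Of 7 clock genes, which move with the hour of harvest, 1 rose and 2 fell by limma (sums of 15201 to 15888 and 10200 to 14093). At an unadjusted p under 0.05, 6 of the 7 clock genes differed in either direction. The unadjusted counts of these lists have no share of all tested genes beside them. After adjustment 16.1% of all tested probe sets passed. The part of cell makeup or harvest time in the jasmonate values was not tested, and in leaf samples fewer cells of a type and less RNA per cell cannot be told apart. OsCGA1 itself could not be found by name in the tables and was not analysed here, so its transcript gives no check of the label.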

How the data were processed

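RNA of 3 wild type and 3 OsCGA1-overexpressing leaf samples was measured on Affymetrix arrays, starting from 5 µg of total RNA per the labels' protocols. The table the authors deposited gives a linear intensity for each probe set, and the submitters' processing notes name MAS5. No version, scaling target or detection call is given in the sources used here, so no probe set could be marked as undetected. The trimmed mean of every array was 100.02, so the arrays were taken as already scaled, and median signals ran from 14.7 to 18.7. The number of arrays limits the precision. Probe sets were named through the platform annotation and the RefSeq gene table (ASM3414082v1, names and gene order only).

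Of 57381 probe sets, 187 controls were left out, and 28456 with a mean signal of at least 16.8 were tested as log2(signal + 3) with limma 3.58.1 in R 4.3.3 (lmFit, eBayes with a variance trend, genotype alone, two-sided, Benjamini-Hochberg over all). This scale understates changes of low signals. The code of the fit was checked on simulated data. Noise there was independent between arrays and probe sets, without array-wide patterns, so the check does not bear on the calls made here. For a gene with several probe sets, the brightest was used.

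The members and gene lists were chosen with earlier results of these data known. The list names DAD1, EG2 and PLA1, meant as plastid lipases, belong to other genes in the table (EG2 to JAZ1), so no lipase was analysed, and LOX1.1 was added once the table was seen. Named genes were the members, the called genes of each role and up to 4 others by smallest p, with further list genes given for completeness, and the 3 genes most like each member. Sequences were not used here. Alternatives varied the pseudocount, filter, scaling, variance model, array weights, replicate block, probe set choice and left-out arrays.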

Additional observations from a re-analysis of the deposited data

How the results depend on the processing

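The log2 changes of the 4 main member probe sets kept their direction in all 15 alternatives, which was largely set in advance. The groups of these probe sets did not overlap, so leaving out 1 array could not turn a sign. The filter, the variance trend and the replicate block leave the estimate itself unchanged. Over the alternatives the log2 changes ran from 1.83 to 2.21 for CM-LOX2, 1.59 to 2.11 for JAZ11, 1.19 to 1.46 for OPR10 and -0.81 to -0.72 for LOX2. LOX5, OPR1 and JAMYB passed in all 15, and OPR8 in the 14 in which it was tested. Over all probe sets 4578 passed, 2461 higher and 2117 lower. These counts became 7945, 3708 and 4237 with array weights, and 1362 were lower with no filter on low signals. Leaving out 1 array gave 2218 to 5497 in all, 1256 to 2593 higher and 843 to 2904 lower. The 10 pathway genes that rose became 6 with no filter and 6 without a variance trend, and 4 to 12 with 1 array left out. The 1 that fell (COI2) became 2 under quantile normalization, 4 with array weights, 2 with the replicate block and 2 with probe sets averaged per gene, and 0 to 3 with 1 array left out. Of the JAZ genes, 3 rose, against 1 with no filter, 1 without a variance trend, 5 with array weights and 0 to 6 with 1 array left out. Leaving out an array leaves fewer samples in the fit, and the counts moved both down and up when this was done. The cause of these and the other shifts was not tested. Under quantile normalization JAZ1 was at 0.097 and NINJA1 at -0.0045, and with array weights JAZ1 was at 0.071, each with its sign turned. With 1 array left out, JAZ9 ran from -0.24 to 0.51, JAZ1 from -0.063 to 0.075, JAZ3 from -0.15 to 0.063, TPR1 from -0.078 to 0.040 and NINJA1 from -0.050 to 0.071. No pairing of the arrays by replicate number was seen. Deviations of equal numbers correlated at 0.10, -0.01 and -0.06, and those of unequal numbers from -0.10 to 0.12. With 3 arrays per genotype these values cannot decide whether the numbers pair. With the replicate block 9 pathway genes rose, BHLH148 now among them and salT and PBZ1 not, while AOC3 fell beside COI2. Without detection calls, the size of changes in dim probe sets stays uncertain.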
